A study of Mus musculus with 6 samples.

Results

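The genes described here are 8 genes of fatty acid oxidation and its control by the peroxisome proliferator-activated receptors (PPARs): the receptors *Ppara*, *Ppard* and *Pparg*, the coactivator *Ppargc1a*, the enzymes *Cpt1a* and *Acadm*, the kinase *Pdk4* and the secreted protein *Angptl4*. They were chosen by name, through the GENCODE M21 symbol of each Ensembl identifier, and make up 8 of the 34866 genes in the count table. All 8 passed the filter on low counts and are among the 16536 genes tested. RNA was sequenced from adenomas excised from the intestine of C57BL/6J mice aged between 100 and 120 days, with 3 libraries from ApcMin/+ mice and 3 from Apc1322T/+ mice. Each mouse inherited its Apc mutation in 1 copy through the germline, and the labels name no other allele or treatment. By the account of the study, an adenoma of an ApcMin mouse arises when an epithelial cell loses heterozygosity at Apc. By the methods of the study, several RNA extractions of 1 mouse were as a rule joined into a sample. Both alleles encode a truncated Apc protein. The question put to these genes is whether adenomas of both models differ in them, as no normal intestine was analysed here, and an excised adenoma holds stroma as well as tumour epithelium.

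PPARs are nuclear receptors that bind fatty acids and pair with retinoid X receptors on DNA. PPARα governs the oxidation of fatty acids and the making of ketone bodies in fasting, PPARδ drives fatty acid oxidation in many tissues, including intestinal stem and progenitor cells, and PPARγ is best known for fat cell differentiation and is also present in the epithelium of the gut. In oxidation, long-chain fatty acids enter the mitochondrion through the carnitine shuttle, are shortened by β-oxidation to acetyl-CoA, and the acetyl-CoA is burnt or turned into ketone bodies.

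Estimated counts summed to between 23132461 and 33518324 per library, and 3 counts correspond to 0.0895 to 0.130 CPM, the count relative to the library's sum. This limit is one of counting alone. The lowest member, *Ppara*, had between 131 and 173 counts per library, which is well above this limit. Epithelial markers were present throughout (7 of 7, summed to 12796 to 14956 CPM in Apc1322T and 10466 to 12065 CPM in ApcMin libraries) and lower in ApcMin for 7 of 7 genes, with a median log2 fold change of -0.34. Macrophage markers went the other way (7 of 7 higher, median 0.73, summed to 91.1 to 122 and 121 to 247 CPM). Smooth muscle markers also did (7 of 7 higher, median 0.63). Of 12 enterocyte markers 11 were lower in ApcMin, with a median of -0.75. Their mean log2 CPM was lowest in Apc1322T replicate 1 and ApcMin replicate 3, at 8.43 and 7.60 against 8.76 to 10.14 in the other 4 libraries, and this mean is what low enterocyte markers refers to below. By summed CPM the lowest were instead ApcMin replicate 1 (10520) and ApcMin replicate 3 (11659), with Apc1322T replicate 1 next at 16615. The 5 ileal markers summed to 337 and 325 CPM in ApcMin replicates 1 and 2 against 78.5 to 176 in the other 4 libraries. This contrast was clear in *Fabp6* (4560 and 2105 counts against 13 to 31) and *Slc10a2* (2348 and 1982 against 108 to 195). It was not shared by all 5, as *Slc51a*, *Slc51b* and *Nr1h4* had log2 fold changes of -0.017, -0.027 and 0.15. Apc1322T replicate 2 stood apart in most of the 8 adipocyte markers listed, though not in all. It had 239 counts of *Adipoq*, 177 of *Plin1*, 66 of *Lep* and 762 of *Cfd*, where the other 5 libraries had at most 1, 8, 0 and 11. For *Retn* it had 93 counts against at most 13. Its log2 CPM was 5.63 for *Fabp4* and 7.01 for *Cidec*, against at most 4.35 and 6.61 in the other 5 libraries. For *Lipe* it had 5.86, below the 5.89 of Apc1322T replicate 3. Values without this library are given below for *Pparg*, *Angptl4*, *Ppard*, *Acadm*, *Pdk4*, *Lpl*, *Cpt1b*, *Cd36* and *Fabp1*. In bulk RNA, fewer cells of a type and less RNA per cell cannot be told apart.

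The receptors are paralogs, and short reads could be shared among them. The coding stretch around the longest run of bases that all 3 genes share is therefore shown, read from the GENCODE M21 transcripts Ppara-201, Ppard-201 and Pparg-201. The bases are 1081 to 1152, 997 to 1068 and 1192 to 1263 of the coding sequence, and the shared run is in capitals.
Ppara: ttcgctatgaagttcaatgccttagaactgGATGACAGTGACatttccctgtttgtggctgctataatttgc
Ppard: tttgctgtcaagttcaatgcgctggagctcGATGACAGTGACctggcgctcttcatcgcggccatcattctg
Pparg: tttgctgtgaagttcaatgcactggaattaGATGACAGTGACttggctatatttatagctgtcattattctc

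The run shared by all 3 genes is 12 bases long, and the longest run shared by a pair is 17 bases, in *Ppard* and *Pparg*. The reads were 50 bases long. Of the 3784, 7599 and 2993 distinct windows of 50 bases in the transcripts of *Ppara*, *Ppard* and *Pparg*, 0 occur in another of the 3 genes. A read that matches its transcript in full therefore fits only 1 of the 3 genes.

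Between the genotypes, 0 of the 8 genes passed an adjusted p of 0.01, the threshold used by the study, when tested by quasi-likelihood in edgeR. Over all 16536 genes tested the count was also 0 (0%), and at an adjusted p under 0.05 it was 0 of 8 members against 1 gene (0.00605%). The study itself applied its threshold with DESeq2, which in these counts called 1.11% of 17503 genes and 0 of the 8 members. In edgeR, 1 member, *Acadm*, was lower in ApcMin at an unadjusted p under 0.05. Of all genes tested 15.1% reached this level, 7.49% higher and 7.6% lower in ApcMin. The libraries of the genotypes overlapped for 8 of 8 members, whereas for 21% of all genes they did not (11% higher and 9.96% lower in ApcMin). Of the 8 log2 fold changes, 7 were below 0 and only that of *Angptl4* was above it, with a median of -0.20. Over all genes 47.6% were below 0 and the median was 0.017. The plot of the members by library shows that the spread within a genotype was as wide as the distance between the genotypes for most of them.

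**Figure D1:**
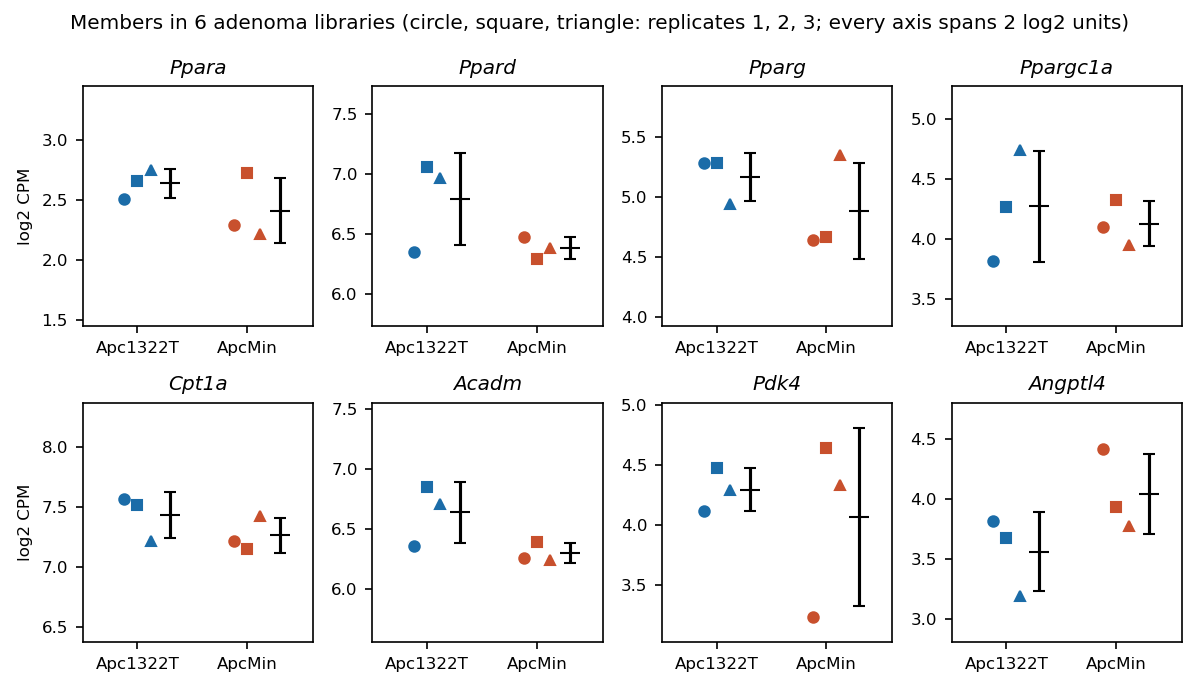
Log2 CPM of the 8 members in each adenoma library (blue, Apc1322T; red, ApcMin; circle, square and triangle for replicates 1, 2 and 3), with the mean and SD of 3 libraries beside the points. Every vertical axis spans 2 log2 units, and the points of the genotypes overlap in each panel.

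*Ppard*, on chromosome 17 (28232700 to 28301474, GRCm38), encodes PPARδ. Its log2 CPM was 6.35, 7.06 and 6.96 in Apc1322T replicates 1, 2 and 3 and 6.48, 6.29 and 6.38 in ApcMin replicates 1, 2 and 3. Apc1322T replicates 2 and 3 were the high libraries, while Apc1322T replicate 1 lay among the ApcMin libraries. The log2 fold change of ApcMin over Apc1322T was -0.44 (standard error 0.19, adjusted p = 0.333, edgeR's quasi-likelihood test, Benjamini-Hochberg). It was -0.62 without Apc1322T replicate 1, where the adjusted p of edgeR was 0.0482 and 1.22% of all 16851 genes in that fit had one under 0.05. It was -0.30 without Apc1322T replicate 2, the library with adipocyte markers.

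*Pparg*, on chromosome 6 (115360951 to 115490399), encodes PPARγ. It had a log2 CPM of 5.28, 5.28 and 4.94 in the Apc1322T libraries and 4.64, 4.67 and 5.35 in the ApcMin libraries. ApcMin replicate 3 was the highest of the 6, and ApcMin replicates 1 and 2 were the lowest. *Pparg* had a log2 fold change of -0.25 (standard error 0.22, edgeR adjusted p = 0.578). *Pparg* was level in Apc1322T replicate 1 and in Apc1322T replicate 2, the library with adipocyte markers (both 5.28). The part of fat cells in these values was not tested, and the log2 fold change without Apc1322T replicate 2 was -0.20. Without ApcMin replicate 3 it was -0.52, and without ApcMin replicate 1 or 2 it was -0.13 or -0.14.

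*Ppara*, on chromosome 15 (85734983 to 85802819), encodes PPARα and had the lowest level of the 8 genes. In the Apc1322T libraries the log2 CPM was 2.51, 2.66 and 2.75 and in the ApcMin libraries 2.29, 2.72 and 2.22. ApcMin replicate 2 lay within the Apc1322T range and the other 2 ApcMin libraries lay below it. This gave a log2 fold change of -0.22 (standard error 0.21, edgeR adjusted p = 0.620), which was -0.39 without ApcMin replicate 2 and -0.12 without ApcMin replicate 3.

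Per kilobase of exon, which allows genes to be compared, PPAR RNA was mostly *Ppard* and *Pparg*. *Ppard* made up 42.7%, 54.6% and 57.9% of the summed counts per kilobase of the receptors in the Apc1322T libraries and 55.0%, 50.3% and 42.6% in the ApcMin libraries. *Pparg* made up 51.6%, 40.4% and 36.1%, and 39.1%, 41.4% and 52.8%. *Ppard* was thus ahead in 4 libraries, and *Pparg* in Apc1322T replicate 1 and ApcMin replicate 3, which had the lowest mean log2 CPM of enterocyte markers. The part of enterocyte content in this order was not tested. Without division by exon length *Ppard* led in 6 of 6 libraries, with 64.8% to 77.0% of the summed counts against 18.9% to 31.6% for *Pparg*, so that the order of both receptors rests on the exon lengths used. *Ppara* made up between 4.59% and 8.22%. The shares of the genotypes overlapped, and the differences of ApcMin minus Apc1322T were -2.37 percentage points for *Ppard* (51.7% ± 8.0 against 49.3% ± 6.27, SD, n = 3 each), 1.75 for *Pparg* and 0.627 for *Ppara*. Exact permutation tests, two-sided, gave p = 0.70, 0.70 and 0.80, where 3 libraries against 3 allow no p under 0.10. The differences for *Ppard* and *Pparg* changed sign without Apc1322T replicate 3 or ApcMin replicate 3, and that for *Ppara* without ApcMin replicate 2.

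**Figure D2:**
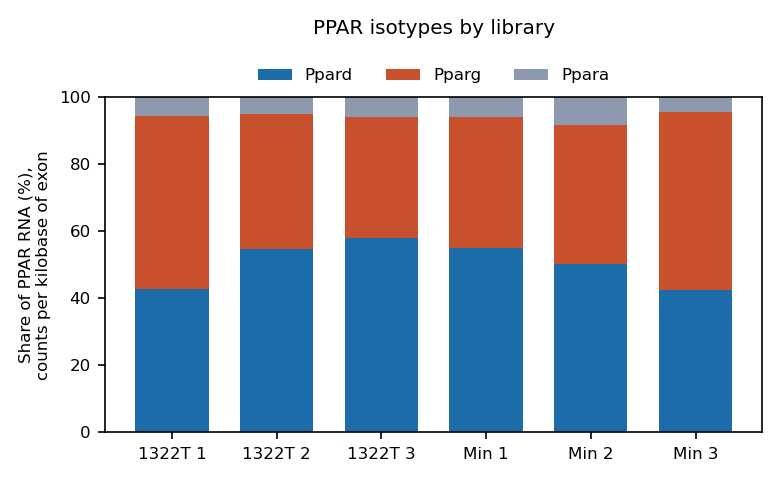
Share of *Ppard*, *Pparg* and *Ppara* in their summed counts per kilobase of exon (%), 1 bar for each library. *Ppard* is the largest share in 4 of the 6 libraries, and *Pparg* in Apc1322T replicate 1 and ApcMin replicate 3.

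*Ppargc1a*, on chromosome 5 (51454250 to 51567726), encodes PGC-1α, the coactivator that joins PPARs to mitochondrial biogenesis. Log2 CPM values were 3.81, 4.26 and 4.74 in the Apc1322T libraries, which was the widest Apc1322T range of the 8 genes, and 4.10, 4.33 and 3.95 in the ApcMin libraries. All 3 ApcMin libraries lay inside the Apc1322T range. The log2 fold change was -0.19 (standard error 0.24, edgeR adjusted p = 0.718) and 0.078 without Apc1322T replicate 3. Without Apc1322T replicate 1 it was -0.38, without ApcMin replicate 2 -0.29 and without ApcMin replicate 3 -0.10. Its paralog *Ppargc1b* had 2.72, 3.53 and 3.32 against 2.51, 2.60 and 2.73, with a log2 fold change of -0.61 (standard error 0.23, edgeR adjusted p = 0.313), and overlapped only by Apc1322T replicate 1. Among the receptors' DNA partners, *Rxra* had a log2 fold change of -0.37 (standard error 0.17) and *Rxrb* of 0.037 (standard error 0.096), and *Rxrg* had at most 4 counts per library and was not tested. Of the 16 partners and coregulators tested, 2 were lower at an unadjusted p under 0.05 and 0 higher, against 7.6% and 7.49% of all genes. One of the 2, *Ncor1*, which encodes a corepressor of nuclear receptors, had no overlap (log2 fold change -0.36, standard error 0.13). For the mitochondrial biogenesis genes (*Nrf1*, *Gabpa*, *Tfam* and others), 0 of 7 reached that level, where 15.1% of all genes did.

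*Cpt1a*, on chromosome 19 (3322334 to 3385733), encodes the carnitine palmitoyltransferase that controls the entry of long-chain fatty acids into the mitochondrion. Its log2 CPM was 7.57, 7.51 and 7.22 in the Apc1322T libraries and 7.22, 7.15 and 7.43 in the ApcMin libraries, the narrowest range of the 8 genes (0.42). ApcMin replicate 3 lay above Apc1322T replicate 3 and below the other 2 Apc1322T libraries, and Apc1322T replicate 3 lay level with ApcMin replicate 1. This gave a log2 fold change of -0.17 (standard error 0.13, edgeR adjusted p = 0.527). It was -0.27 without Apc1322T replicate 3 and -0.26 without ApcMin replicate 3, and -0.098 without Apc1322T replicate 1. *Cpt1a* was the main isoform in all libraries, with between 92.8% and 96.9% of the Cpt1 counts per kilobase. *Cpt1b*, the muscle form, also found in fat, was highest in Apc1322T replicate 2, at a log2 CPM of 2.07, and its log2 fold change was -0.20 (standard error 0.82) with this library and 0.79 (standard error 0.77) without it. *Cpt1c*, the form of neurons, was low but higher in the 3 ApcMin libraries (1.96, 1.42 and 2.10 against 1.23, 0.58 and 1.21), with a log2 fold change of 0.84 (standard error 0.31, edgeR unadjusted p = 0.0304, adjusted p = 0.310). Downstream of *Cpt1a* in the shuttle, the carrier *Slc25a20* (-0.42, standard error 0.11, edgeR adjusted p = 0.273) and the inner membrane transferase *Cpt2* (-0.43, standard error 0.15, edgeR adjusted p = 0.307) were lower in ApcMin without overlap. Of the 7 genes of the shuttle, *Cpt1a* included, 2 were lower and 1 higher at an unadjusted p under 0.05, all without overlap. Over all genes 7.6% were lower and 7.49% higher at that level, and 9.96% were lower and 11% higher without overlap. No gene of the shuttle passed the threshold.

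*Acadm*, on chromosome 3 (153922357 to 153944632), encodes the medium-chain acyl-CoA dehydrogenase of β-oxidation. Its log2 CPM was 6.36, 6.85 and 6.71 in the Apc1322T libraries and 6.26, 6.39 and 6.24 in the ApcMin libraries. Apc1322T replicates 2 and 3 stood above the other 4 libraries, and the overlap came from Apc1322T replicate 1 and ApcMin replicate 2 alone. The log2 fold change was -0.36 (standard error 0.14, edgeR unadjusted p = 0.0358, adjusted p = 0.312). It was -0.25 without Apc1322T replicate 2. Among the acyl-CoA dehydrogenases *Acadm* gave 8.82% ± 1.71 of the counts per kilobase in Apc1322T and 9.63% ± 1.01 in ApcMin adenomas (SD, n = 3), while *Acadl*, the long-chain enzyme, gave 54.5% ± 3.47 and 49.2% ± 1.86.

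As *Acadm* is a classical PPAR target, its promoter was read from RefSeq (GRCm38.p6, chr3:153944594-153944893, minus strand), from 250 bases before the start to 50 after it. The capitals mark the place closest to the PPAR element, which is the half-site AGGTCA followed by any base and AGGTCA again, on the opposite strand. There, 3 letters differ from the element.
Acadm: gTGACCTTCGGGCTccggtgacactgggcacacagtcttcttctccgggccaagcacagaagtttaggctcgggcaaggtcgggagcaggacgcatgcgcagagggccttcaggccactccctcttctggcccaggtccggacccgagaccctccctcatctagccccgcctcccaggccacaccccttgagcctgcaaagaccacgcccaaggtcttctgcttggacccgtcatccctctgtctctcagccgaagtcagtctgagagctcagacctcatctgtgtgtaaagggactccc

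Of 32851 RefSeq promoter windows, 24.6% hold a place as close to this element on either strand, so that the match does not set *Acadm* apart. Among the 9 windows of the 7 members with an entry, 0 come within 2 letters, as 3.86% of all windows do. The element was searched on both strands.

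The other genes of β-oxidation mostly lay on the same side as *Acadm*. In the mitochondrial list of 15 genes, *Acadm* included, 14 log2 fold changes were below 0, 9 genes were lower at an unadjusted p under 0.05 and 7 of 15 had no overlap, with a median of -0.36. The background is 7.6% and 9.96% of all genes for these counts. The count of 9 was 6 without Apc1322T replicate 2, ApcMin replicate 1 or ApcMin replicate 3. Enterocyte and epithelial markers were lower in ApcMin too, with medians of -0.75 and -0.34, and their part in the values of the oxidation lists was not tested. The largest was that of *Acadl* (-0.63, standard error 0.12, edgeR adjusted p = 0.257), with a log2 CPM of 8.49, 8.31 and 8.17 against 7.69, 7.57 and 7.81. *Hadha* (-0.44) and *Hadhb* (-0.46), the subunits of the trifunctional protein, *Acadvl* (-0.40), *Decr1* (-0.54), and *Etfa* (-0.23) and *Etfdh* (-0.42), which pass on the electrons, were the others without overlap. Their edgeR adjusted p was between 0.257 and 0.321. In peroxisomal oxidation 12 of 12 genes were below 0 (median -0.50), 6 at an unadjusted p under 0.05 and 4 of 12 without overlap. This count of 6 was 10 without Apc1322T replicate 1, and 3 without Apc1322T replicate 2, Apc1322T replicate 3 or ApcMin replicate 3. *Hsd17b4* (-0.39), the transporter *Abcd3* (-0.36) and the carnitine octanoyltransferase *Crot* (-0.51) met both criteria, and the other one without overlap was the thiolase *Acaa1b*. No gene of either list passed an adjusted p of 0.01 in edgeR. DESeq2's Wald test, named in the study's methods, called 1.11% of 17503 genes at that threshold, among them *Acadl* (adjusted p = 7.8e-04), *Hadha* (0.00119), *Hadhb* (0.00676) and *Hsd17b4* (0.00936). It called 0 of the 8 members, with adjusted p between 0.231 and 0.90. On simulated counts for 16536 genes DESeq2 called 43 unchanged genes at that threshold, and edgeR 9. These counts were drawn with the dispersions that edgeR fitted, so they cannot decide whether the 4 list calls of DESeq2 hold.

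Ketone body genes were followed as well. Of 6 genes 5 were below 0, against 47.6% of all genes, and 2 were lower at an unadjusted p under 0.05 without overlap. Over all genes 7.6% were lower at that level and 9.96% lower without overlap. The 2 genes were *Bdh1*, the 3-hydroxybutyrate dehydrogenase (-0.41, standard error 0.10), and *Acat1*, the mitochondrial thiolase (-0.41, standard error 0.096). *Slc16a7*, a monocarboxylate transporter of low level, was the one gene above 0 (0.25, standard error 0.26), without overlap. *Oxct1*, which starts the use of ketone bodies, had a log2 fold change of -0.47 (standard error 0.24), with overlap. For *Bdh1*, *Acat1* and *Oxct1* the edgeR adjusted p was between 0.257 and 0.387.

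**Figure D3:**
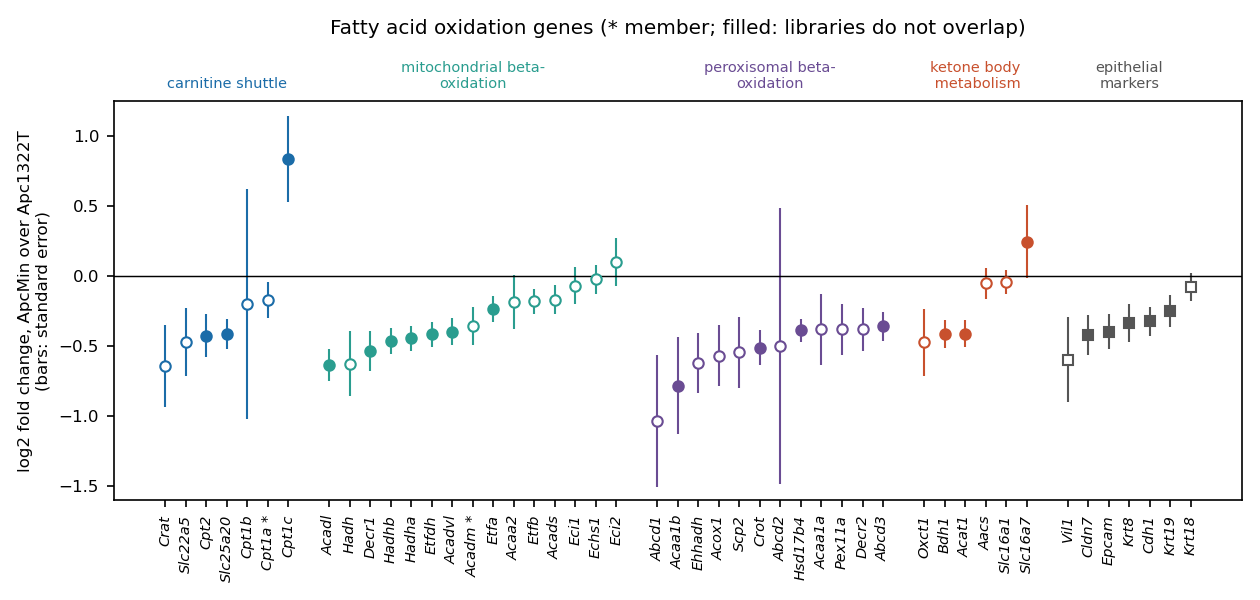
Log2 fold change of ApcMin over Apc1322T adenomas with its standard error (edgeR) for each gene of 4 lists of fatty acid oxidation and for the epithelial markers, ordered within a list. Most genes of oxidation lie between -0.60 and 0, as do the epithelial markers at the right, and filled symbols mark genes whose libraries do not overlap.

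The log2 fold changes of the 7 epithelial markers at the right of that plot ran from -0.60 to -0.077. On a scale relative to the epithelial markers (log2 CPM minus the mean of the 7 markers in the same library, a value with no test), the difference was -0.0030 for *Acadm* and -0.068 for *Ppard*. For *Cpt1a* it was 0.17, for *Ppara* 0.12, for *Pparg* 0.058, for *Pdk4* 0.11 and for *Ppargc1a* 0.20, all opposite in sign to the log2 fold changes. The median of the mitochondrial list was -0.0030 on this scale (8 of 15 below 0, 0 lower and 1 higher without overlap) and that of the peroxisomal list -0.10 (10 of 12 below 0, 1 lower without overlap, *Crot*). *Acadl* remained below 0, at -0.29, with overlap. The median of the ketone body list was 0.11 on this scale (3 of 6 below 0, 0 lower and 2 higher without overlap). The scale moves every gene of a library alike, and 87.5% of all genes tested lay above 0 on it. Over all genes, 33.9% were higher in ApcMin without overlap on this scale and 0.744% lower, and in the partners and coregulators 8 of 16 were higher without overlap.

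**Figure D4:**
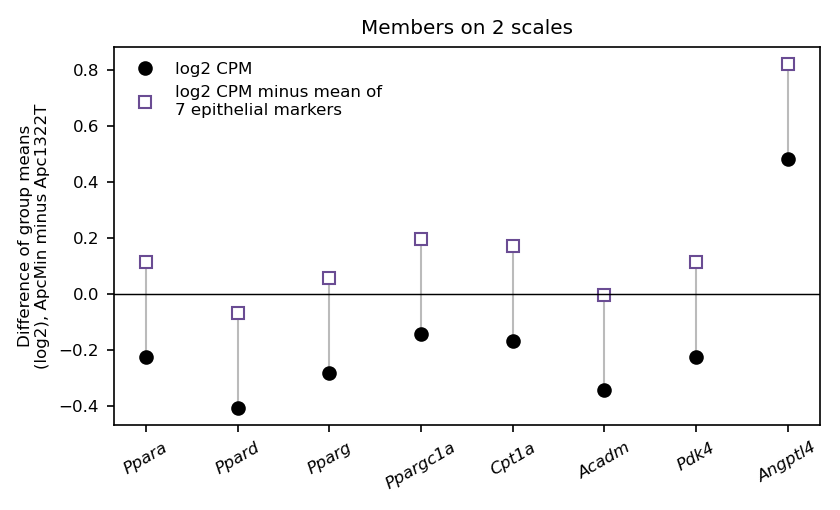
Difference of group means, ApcMin minus Apc1322T, for each member on log2 CPM (black circles) and on log2 CPM minus the mean of 7 epithelial markers (open squares). All 8 move up on the second scale, and 7 of them lie between -0.068 and 0.20 there, while *Angptl4* lies at 0.82.

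*Pdk4*, on chromosome 6 (5483351 to 5496309), encodes the kinase that shuts off pyruvate dehydrogenase when fat is burnt. Log2 CPM values of 4.12, 4.48 and 4.29 in the Apc1322T libraries stood against 3.23, 4.64 and 4.33 in the ApcMin libraries. ApcMin replicate 1 was the lowest of the 6 libraries and ApcMin replicate 2 the highest, so that the ApcMin libraries spanned the widest range of any member. For *Pdk4* the log2 fold change was -0.12 (standard error 0.34, edgeR adjusted p = 0.881) and turned to 0.19 without ApcMin replicate 1. It was -0.42 without ApcMin replicate 2 and -0.027 without Apc1322T replicate 2. *Pdk4* gave between 9.23% and 18.6% of the Pdk counts per kilobase. Its paralogs *Pdk1* (0.021, standard error 0.20) and *Pdk3* (0.0021, standard error 0.13) had log2 fold changes under 0.05, and that of *Pdk2* was -0.42 (standard error 0.29). Of the 12 other genes of pyruvate dehydrogenase control, 2 were lower at an unadjusted p under 0.05 without overlap, *Dld* (-0.29), a subunit of the complex, and the pyruvate carrier subunit *Mpc2* (-0.27). The shares over all genes were 7.6% lower at that level and 9.96% lower without overlap.

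*Angptl4*, on chromosome 17 (33773750 to 33781830), encodes a secreted inhibitor of lipoprotein lipase that PPARs, fasting and low oxygen induce. It was the one member with a log2 fold change above 0. Its log2 CPM was 3.82, 3.68 and 3.19 in the Apc1322T libraries and 4.42, 3.93 and 3.78 in the ApcMin libraries, with counts of 382, 268 and 207 against 763, 387 and 432. The order was parted but for Apc1322T replicate 1, which lay just above ApcMin replicate 3. The log2 fold change was 0.49 (standard error 0.23, edgeR adjusted p = 0.365, exact permutation test, two-sided, p = 0.20), a fold of 1.40. It was 0.54 without Apc1322T replicate 2, the library with adipocyte markers. The value was 0.27 without ApcMin replicate 1 and 0.32 without Apc1322T replicate 3, and reached 0.63 without Apc1322T replicate 1. Relative to the epithelial markers the difference was 0.82, and *Angptl4* was the only member without overlap on that scale, where 33.9% of all genes were higher without overlap. *Angptl4* is known from endothelium, fat and macrophages too, and macrophage and smooth muscle markers were also higher in ApcMin libraries. Their part in the value was not tested.

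The target of *Angptl4*, lipoprotein lipase (*Lpl*), was highest in Apc1322T replicate 2, at a log2 CPM of 5.15, and next in ApcMin replicate 1, at 4.19, against 1.97 to 2.26 in the other 4 libraries. Its log2 fold change of -0.68 had a standard error of 1.02 and was 1.12 (standard error 0.75) without Apc1322T replicate 2. Of the 7 genes of lipoprotein lipase control, 0 reached an unadjusted p under 0.05, where 15.1% of all genes did. Among the other PPAR targets, 16 of 17 log2 fold changes were below 0 (median -0.32), against 47.6% of all genes. Relative to the epithelial markers, 8 of 17 were below 0, with a median of 0.036. At an unadjusted p under 0.05, 3 of the 17 were lower, where 7.6% of all genes were. *Txnip*, which restrains glucose uptake, was the one of the 3 without overlap (-0.38, standard error 0.11, edgeR adjusted p = 0.279). Larger values were those of *Cd36* (-1.50, adjusted p = 0.0254) and *Fabp1* (-1.33, adjusted p = 0.0277) in DESeq2's Wald test. Relative to the epithelial markers these 2 genes lay at -1.07 and -1.08, with overlap. Without Apc1322T replicate 2 their log2 fold changes in edgeR were -1.15 and -1.14. *Ucp3*, *Fgf21* and *Cyp4a14* had at most 5 counts per library. Of 10 genes that low oxygen induces, 6 were above 0 and 4 below, where 47.6% of all genes were below. The median of the 10 genes was 0.22. This median was 0.013 without Apc1322T replicate 3, 0.025 without ApcMin replicate 3, 0.054 without Apc1322T replicate 2 and 0.14 without ApcMin replicate 2, and 0.46 without Apc1322T replicate 1. *Vegfa* was higher (0.37, standard error 0.099, edgeR adjusted p = 0.279) and *Ldha* lower (-0.28, standard error 0.11, edgeR adjusted p = 0.317), both without overlap. That is 1 of 10 in each direction, where 11% of all genes were higher and 9.96% lower without overlap.

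Between the members, levels were compared as CPM per kilobase of exon, averaged over the 6 libraries. *Acadm* (22.9) and *Cpt1a* (21.5) were the highest, in this order in 4 of 6 libraries only, followed by *Ppard* (13.1) and *Pparg* (11.2), again in this order in 4 of 6. Without division by exon length *Cpt1a* had 3392 to 5450 counts per library and *Acadm* 2137 to 2735, so that their order rests on the exon lengths used. The next levels were 5.38 for *Pdk4*, 4.05 for *Angptl4*, 2.84 for *Ppargc1a* and 1.5 for *Ppara*. Each step from *Cpt1a* to *Ppard*, from *Pparg* to *Pdk4* and from *Ppargc1a* to *Ppara* held in 6 of 6 libraries, and the steps around *Angptl4* in 5 of 6.

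The shape of each profile over the 6 libraries was then compared, as the root mean square difference of log2 CPM after centring each gene on its mean. The most alike members were *Ppard* and *Acadm*, at 0.13, then *Ppara* and *Acadm* and also *Cpt1a* and *Pparg*, both at 0.16, and the least alike were *Pdk4* and *Angptl4*, at 0.74. Both libraries with low enterocyte markers, Apc1322T replicate 1 and ApcMin replicate 3, were the lowest of their genotype for *Ppara*, *Acadm* and *Ppargc1a* (3 of 8, against 19.7% of all genes) and the highest for *Cpt1a* (1 of 8, against 20.8%). *Pparg* was near this second pattern, missing it by less than 0.01 in Apc1322T replicate 2. Both libraries were the lowest of their genotype for 6 of 12 peroxisomal genes, 8 of 16 partners and coregulators and 2 of 15 mitochondrial genes. They were both the highest for 0, 1 and 4 genes of these lists. The 9 of 12 enterocyte markers lowest in both follow from the choice of the libraries, which was made by these markers. The nearest of all tested genes were *Ddx49* and *Gm20604* for *Cpt1a* (0.035 and 0.040), *Mfsd8* and *Trak1* for *Ppara* (0.033 and 0.039), *Lpar5* and *Ppm1h* for *Ppard* (0.044 and 0.062), and *Cym* and *Slc39a11* for *Pparg* (0.085 and 0.088). They were *Uqcrh-ps1* and *Lasp1* for *Acadm* (0.021 and 0.024) and *Vmn1r90* and *Olfr295* for *Ppargc1a* (0.067 and 0.072). *Pdk4* was nearest to *Six4* and *P4htm* (both 0.14), and *Angptl4* to *BC028528* and *Gm15877* (0.083 and 0.11).

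**Figure D5:**
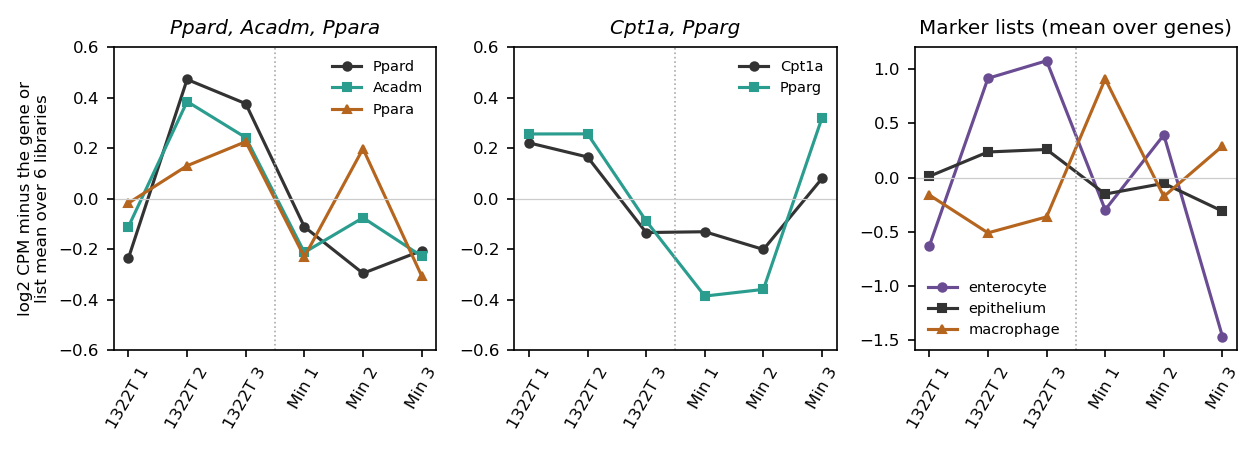
Log2 CPM of 5 members, and the mean log2 CPM of 3 marker lists, in each library, minus the mean over the 6 libraries (lines only join the points of a gene or list). *Ppard* and *Acadm* are high in Apc1322T replicates 2 and 3, *Cpt1a* and *Pparg* are high in Apc1322T replicates 1 and 2 and ApcMin replicate 3, and the enterocyte markers are low in Apc1322T replicate 1 and ApcMin replicate 3.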

How the data were processed

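Strand-specific single-end reads of 50 bases from 6 adenoma libraries were assigned by the authors to the mouse transcriptome of GRCm38.p6 with Salmon. The deposited values are estimated counts per gene, not scaled for depth or length, and 29.4% of them are not whole (tolerance 0.01). They were rounded, filtered with filterByExpr (minimum count 10, total 15) and normalised by TMM. The genotypes were compared over all 16536 genes kept in edgeR 4.0.16 (quasi-likelihood, robust), with p-values adjusted by the Benjamini-Hochberg method and a threshold of 0.01. The F statistic of each log2 fold change gave its standard error. A prior count of 2 was used for log2 CPM. Gene symbols came from GENCODE M21 for 34582 of 34866 genes. Depth and its limits are given with the results, and the labels do not say whether libraries of a genotype came from separate mice, so that p-values measure the spread between these libraries.

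The alternatives were DESeq2 1.42.0 (in R 4.3.3), other size factors and filters, a threshold of 0.05, each library left out and a replicate block. The omission of both libraries low in enterocyte markers and the epithelial scale were added after the data were seen. The members and gene lists were chosen with earlier results of these data known. A listed gene is not reported here and was left out of its list. Genes named are the members, their paralogs and partners, the list genes with an unadjusted p under 0.05 and no overlap, and the 2 nearest genes by profile. The adipocyte and ileal markers, *Cd36*, *Fabp1*, *Slc16a7*, *Acaa1b* and the genes with few counts are named in addition, after their values were seen. Counts for 16536 genes were simulated with the dispersions that edgeR fitted, and 67, 67 and 66 genes were changed by 0.5, 1 and 2 on the log2 scale. Of these, edgeR called 0%, 32.8% and 84.8% at an adjusted p under 0.01, and DESeq2 13.4%, 64.2% and 95.5%. Of the unchanged genes edgeR called 9 and DESeq2 43.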

Additional observations from a re-analysis of the deposited data

How the results depend on the processing

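Of the member results, the number past an adjusted p of 0.01 stayed at 0 under every alternative run. The direction of *Ppard*, *Acadm* and *Angptl4* held in all 14, but relative to the epithelial markers *Ppard* was near 0 (-0.068) and *Acadm* nearer still (-0.0030). When single libraries were omitted, *Pdk4* lay between -0.42 and 0.19 and *Ppargc1a* between -0.38 and 0.078, and the differences in share of PPAR RNA between -6.89 and 0.988 percentage points for *Ppard*, between -2.43 and 6.19 for *Pparg* and between -0.372 and 1.44 for *Ppara*. The signs of *Cpt1a* (0.17), *Ppara* (0.12), *Pparg* (0.058), *Pdk4* (0.11) and *Ppargc1a* (0.20) were reversed relative to the epithelial markers, which lie lower in ApcMin. DESeq2's Wald test called 4 genes of the pathway lists at an adjusted p under 0.01, where edgeR called 0. The number of peroxisomal genes lower at an unadjusted p under 0.05 was 6, lay between 3 and 10 with single libraries omitted and was 10 without Apc1322T replicate 1 and ApcMin replicate 3 together. The median of the partners and coregulators was 0.018 and that of mitochondrial biogenesis 0.034 with upper quartile normalization. With single libraries omitted the median lay between -0.10 and 0.0013 for partners and coregulators and between -0.20 and 0.034 for lipoprotein lipase control. The latter was 0.017 without both libraries low in enterocyte markers. Same-numbered libraries did not deviate together (correlations of -0.014, 0.16 and -0.29), and with the replicate block the members' log2 fold changes were -0.17 for *Cpt1a*, -0.41 for *Ppard*, -0.34 for *Acadm* and 0.48 for *Angptl4*. The block left the calls at 0 members and 0 list genes. The labels tie no litter, batch or day to a number, and 1 of the 6 libraries deviated most like the library of its own number in the other genotype. In simulated counts edgeR called 0% of genes changed by 0.5, which is larger than the log2 fold change of any member.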
